A study of Mus musculus with 9 samples.

Results

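miR-26a-5p (MIMAT0000533) and miR-26b-5p (MIMAT0000534) are the mature 5′ strands of the miR-26 family, 2 of the 876 miRNA identifiers with a count in at least 1 library of this series. The pair was selected on its miRBase identifiers together with measured values, namely the counts scaled to the miRNA sum of the library and the ratio of both members in control, beads-depleted and RNase H-depleted libraries. Those values are therefore given as a description, without a test. Both members had a count in all 9 libraries.

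Serum came from healthy 129/SVj mice, male and female pooled, aged 2 to 9 months, which were sedated with tribromoethanol before blood was drawn. The labels name 3 serum pools (A, B and C), while the methods describe 200 μl aliquots of serum pooled from 3 mice, so the spread between libraries of a group may be technical only. RNA of each pool was divided over an undepleted control, a fraction depleted of abundant 5′ tRNA fragments with biotinylated DNA probes and streptavidin beads, and a fraction in which RNase H cleaved the RNA paired with such probes. This gave 9 small RNA libraries, 3 per group. The comparison addresses whether each depletion protocol left the relative levels of both miRNAs as they were in undepleted RNA. The methods describe heating, hybridization and ethanol precipitation for depleted fractions only, so removal of tRNA fragments and this handling cannot be told apart.

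A miRNA guides an Argonaute protein to messenger RNAs, mainly through pairing of its seed, bases 2 to 8 counted from the 5′ end, and lowers their output. Members with the same seed are expected to share most targets. The miR-26 family is expressed in many vertebrate tissues and is best known for repressing the histone methyltransferase Ezh2 and for low levels in several cancers. Circulating miRNAs are protected by proteins or vesicles, and in cell-free serum a lower count cannot tell apart fewer releasing cells and less RNA released per cell.

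Both mature sequences are shown because they carry the family's shared seed, which is in capitals, and the few bases on which the assignment of a read depends (RefSeq, GRCm38.p6).
miR-26a-5p: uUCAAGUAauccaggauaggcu
miR-26b-5p: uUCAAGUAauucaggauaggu

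The seed UCAAGUA was found in 2 of the 1679 mature mouse miRNA names of the RefSeq table, which are these members. Aligned from base 1 and with miR-26b-5p extended along its hairpin to 22 bases, the members differed by C11U and C21U, where the base of miR-26a-5p comes first and positions are counted from its 5′ end. Reads were mapped without mismatches, so a read that covers position 11 can be placed with only 1 of the members. A read that ends before position 21 differs between the members at position 11 alone. The count files hold no read sequences, and read ends were not analysed here.

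The hairpins are shown because miR-26a-5p, in capitals, has identical copies in a pair of them, whereas miR-26b-5p, also in capitals, has a single source.
Mir26a-1: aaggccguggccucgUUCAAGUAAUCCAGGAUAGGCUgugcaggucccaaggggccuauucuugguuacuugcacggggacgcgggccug
Mir26a-2: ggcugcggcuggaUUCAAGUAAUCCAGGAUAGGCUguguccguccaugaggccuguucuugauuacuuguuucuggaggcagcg
Mir26b: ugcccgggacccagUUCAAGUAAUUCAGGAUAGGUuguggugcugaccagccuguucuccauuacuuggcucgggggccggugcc

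Each hairpin lies on the plus strand within an intron of a gene for a small phosphatase of the carboxy-terminal domain of RNA polymerase II (GRCm38). Mir26a-1 is at chr9:119031796-119031885, in intron 5 of the 8-exon principal transcript of Ctdspl. Mir26a-2 is at chr10:126995530-126995613, in intron 5 of the 8-exon principal transcript of Ctdsp2. In 2 of the 4 Ctdsp2 transcripts of GENCODE, an exon starts at position 126995613 and shares 1 base with this hairpin. Mir26b is at chr1:74394310-74394394, in intron 4 of the 7-exon principal transcript of Ctdsp1. Counts of miR-26a-5p cannot be divided between Mir26a-1 and Mir26a-2, and how the authors counted reads with several genomic positions is not given in the sources used here. The 3′ strands differed more, with 16 of 22 identical bases between miR-26a-1-3p and miR-26a-2-3p and 18 of 22 between miR-26a-2-3p and miR-26b-3p. Their counts were not analysed here, since no table used here pairs their names with the identifiers in the files.

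**Figure D1:**
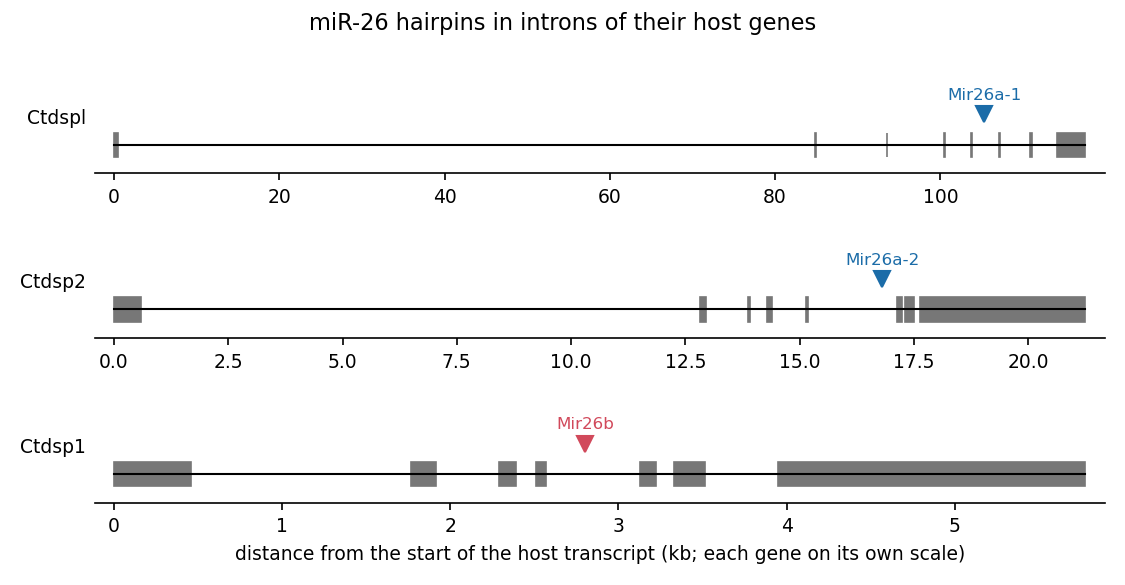
Exons (grey boxes) of the principal transcripts of Ctdspl, Ctdsp2 and Ctdsp1 along the distance from the transcript start in kb, each gene on its own scale, with triangles for the miR-26 hairpins. Mir26a-1 and Mir26a-2 fall in intron 5 of their host genes and Mir26b in intron 4.

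Control libraries held 205185 to 330676 miRNA counts, beads-depleted libraries 1822088 to 1995956 and RNase H-depleted libraries 1199 to 2040. All annotated counts, which add tRNA, rRNA, piRNA, snRNA and snoRNA reads, came to between 3904095 and 4920457, between 2796718 and 3538246 and between 47252 and 160581 in these groups. A level below is a percentage of the miRNA counts of its library. A floor of 3 counts, at or below which a level is too uncertain to read, corresponded to at most 0.00146% in control and beads-depleted libraries. For RNase H this floor was far higher, from 0.147% up to 0.250%. miR-16-5p (MIMAT0000527), the only other miRNA whose name the study pairs with its identifier and one that is abundant in red blood cells, was the most abundant miRNA of control libraries with a level of 13.6% ± 0.166 (SD, n = 3). After depletion its level came to 10.7% ± 0.143 with beads and to 9.36% ± 2.62 with RNase H (SD, n = 3 each). Other markers of blood cells, liver or muscle could not be matched to identifiers and were not analysed here.

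In control libraries, miR-26a-5p was a moderately abundant miRNA with very even levels, and miR-26b-5p was lower by a factor of between 5.35 and 6.30. miR-26a-5p had 1651, 2638 and 1953 counts in pools A, B and C. These correspond to levels of 0.805% (Wilson 95% confidence interval 0.767% to 0.844%), 0.798% (0.768% to 0.829%) and 0.785% (0.751% to 0.821%), so the intervals of the 3 pools overlapped. The mean level of 0.796% ± 0.00981 (SD, n = 3) placed miR-26a-5p at rank 23 of 572 miRNAs. Its spread between pools was smaller than the 0.0178 percentage points that counting alone gives. The coefficient of variation of 1.23% was among the lowest of the 85 miRNAs with at least 100 counts in every control and beads-depleted library, with 6 lower and a median of 5.0%. In beads-depleted libraries it was 6.02%, with 41 of the 85 lower.

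miR-26b-5p had 262, 491 and 365 counts in control pools A, B and C. Its levels were 0.128% (0.113% to 0.144%), 0.148% (0.136% to 0.162%) and 0.147% (0.132% to 0.163%), lowest in pool A. The mean level of 0.141% ± 0.0115 (SD, n = 3) gave rank 55 of 572. Here the spread between pools exceeded the 0.00744 percentage points expected from counting. The coefficient of variation of miR-26b-5p was 8.19% in control libraries, with 60 of the 85 miRNAs lower, and 11.5% in beads-depleted libraries, with 79 lower. Intervals cover counting error only, because reads were amplified by PCR without molecular identifiers.

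After depletion with beads, both members took a larger part of the miRNA counts, and the difference was much larger for miR-26b-5p. miR-26a-5p had 17416, 19005 and 18564 counts in pools A, B and C. Its levels were 0.904% (0.891% to 0.917%), 0.952% (0.939% to 0.966%) and 1.02% (1.00% to 1.03%), and all 3 lay above the highest control library. The mean of 0.958% ± 0.0577 (SD, n = 3) was on average 1.20 times the control level of the same pool, with the lowest value of 1.12 in pool A and the highest of 1.30 in pool C. The log2 ratio of the mean levels was 0.27.

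miR-26b-5p had 4878, 6082 and 5753 counts in beads-depleted pools A, B and C. Its levels were 0.253% (0.246% to 0.260%), 0.305% (0.297% to 0.312%) and 0.316% (0.308% to 0.324%). The lowest of these was well above the highest control level, and pool A was again the lowest. The mean of 0.291% ± 0.0334 (SD, n = 3) was 2.06 times the control level within pools, with a narrow range of 1.98 to 2.15, and the log2 ratio of the mean levels was 1.05. miR-26b-5p thereby stood at rank 39 of 837 miRNAs and miR-26a-5p at rank 19.

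Raw counts showed the same order. Within pools, beads-depleted libraries had 7.58 ± 1.69 (SD, n = 3) times as many miRNA counts as control libraries, 9.09 ± 1.71 times as many counts of miR-26a-5p and 15.6 ± 3.12 times as many of miR-26b-5p. The raw gain of miR-26b-5p was lowest in pool B (12.4) and highest in pool A (18.6), following the gain of all miRNA counts, which was also lowest in pool B (6.04) and highest in pool A (9.39).

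**Figure D2:**
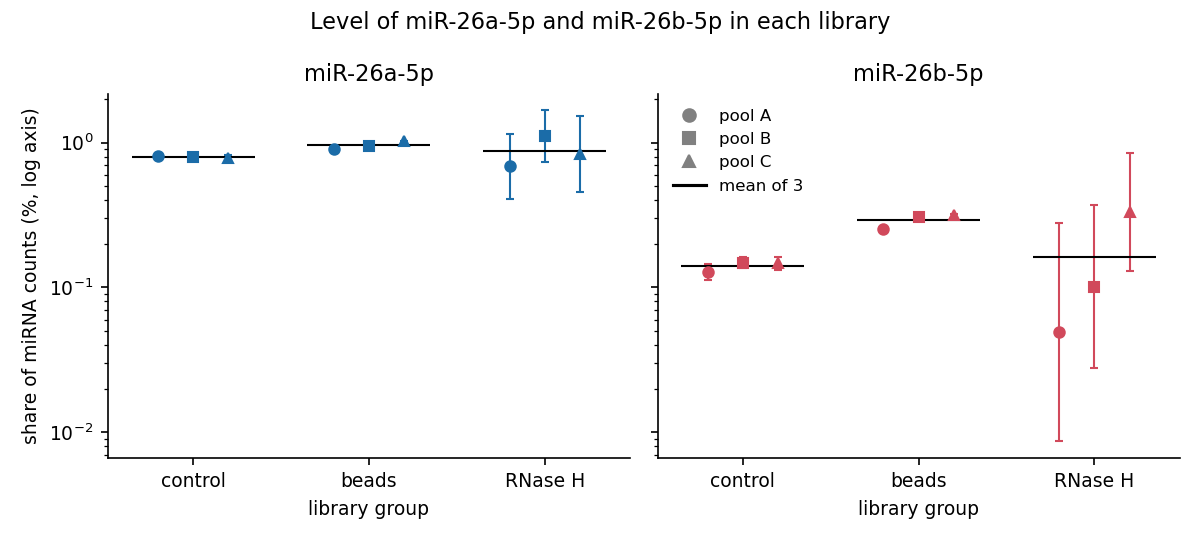
Levels of miR-26a-5p and miR-26b-5p as a percentage of the miRNA counts of a library (log axis) in control, beads-depleted and RNase H-depleted libraries of pools A, B and C, with Wilson 95% confidence intervals and the mean of 3 libraries as a line. Beads-depleted libraries lie above control libraries for both members, while RNase H-depleted libraries rest on 10 to 22 counts of miR-26a-5p and 1 to 4 counts of miR-26b-5p.

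The composition of the pair does not depend on the scaling of a library, since both members are counted in the same library and share its scaling. In control libraries, the ratio of miR-26a-5p to miR-26b-5p counts was 6.30 in pool A, 5.37 in pool B and 5.35 in pool C. In beads-depleted libraries it was 3.57, 3.12 and 3.23 in the same order. The groups did not overlap, and pool A had the highest ratio in both. How many other pairs of miRNAs separate in this way was not counted. miR-26b-5p accounted for 15.0% ± 1.17 of the pair in control libraries and 23.3% ± 1.23 in beads-depleted libraries (SD, n = 3). The share of miR-26a-5p fell by 8.22 percentage points, with a spread between pools of only 0.321 percentage points (SD, n = 3).

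Within a pool, the ratio of miR-26b-5p to miR-26a-5p was 1.76 times as high after beads depletion as in the control in pool A, 1.72 times in pool B and 1.66 times in pool C. On the log2 scale this difference was 0.78 ± 0.045 (SD, n = 3), and its counting error lay between 0.074 and 0.0987 per pool. The pair as a whole took 0.937% ± 0.00811 of the miRNA counts in control libraries and 1.25% ± 0.0889 in beads-depleted libraries (SD, n = 3).

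**Figure D3:**
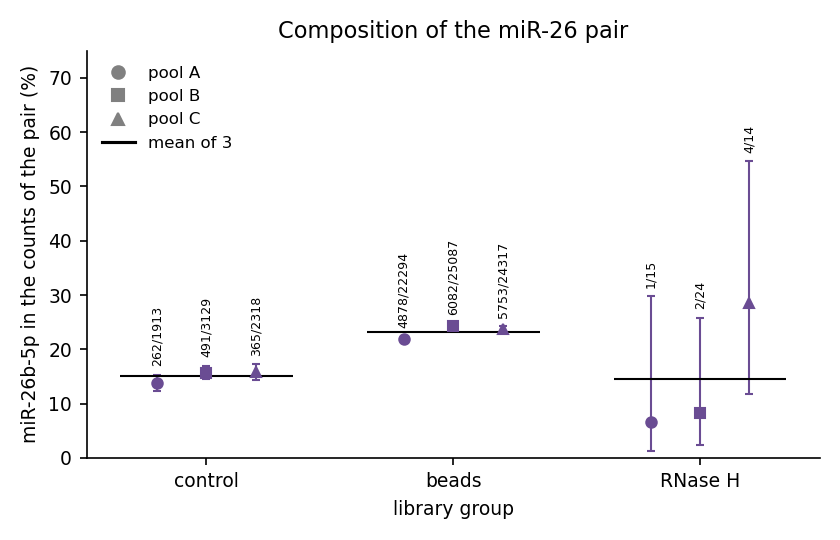
Percentage of miR-26b-5p in the summed counts of miR-26a-5p and miR-26b-5p in each library, with Wilson 95% confidence intervals, the mean of 3 libraries as a line, and the counts of miR-26b-5p over those of the pair above each point. Control libraries lie between 13.7% and 15.7%, beads-depleted libraries between 21.9% and 24.2%, and the intervals of RNase H-depleted libraries cover both ranges.

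After depletion with RNase H, the counts were too few to place either member above or below its control level. miR-26a-5p had 14, 22 and 10 counts in pools A, B and C, or levels of 0.686% (0.409% to 1.15%), 1.11% (0.736% to 1.68%) and 0.834% (0.454% to 1.53%). These lay on both sides of the control libraries. The mean level was 0.878% ± 0.217 (SD, n = 3), a log2 ratio of 0.14 to the control mean. The 46 counts summed over the 3 libraries had an exact Poisson 95% interval of 33.7 to 61.4. At the control level 41.5 counts would be found in these 5216 miRNA counts, and 50.0 at the level of beads-depleted libraries, so a difference of the size seen with beads was not detectable for miR-26a-5p.

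miR-26b-5p had 1, 2 and 4 counts in RNase H-depleted pools A, B and C, which are levels of 0.0490% (0.00865% to 0.277%), 0.101% (0.0277% to 0.368%) and 0.334% (0.130% to 0.855%). Pools A and B were below the control libraries and pool C above them, and only pool C was above the floor of 3 counts. The mean level was 0.161% ± 0.152 (SD, n = 3). The log2 ratio of this mean to the control mean was 0.19, whereas the mean of the log2 ratios within pools was -0.25, so the sign depends on how the pools are averaged. The sum of 7 counts (exact Poisson 95% interval 2.81 to 14.4) can be set beside 7.35 counts at the control level and 15.2 at the level of beads-depleted libraries. The interval covers counting error only. Over the more abundant miRNAs the 3 libraries differed from each other by more than sampling noise, a comparison that did not include miR-26b-5p. Pool C alone had a level of miR-26b-5p above the mean of beads-depleted libraries. In the summed counts miR-26b-5p made up 13.2% of 53 counts of the pair (Wilson 95% confidence interval 6.55% to 24.8%), an interval that holds both the 15.2% of the summed control and the 23.3% of the summed beads-depleted counts.

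Against the other miRNAs, miR-26b-5p was far up the range of changes after beads depletion and miR-26a-5p was moderately placed. In edgeR's quasi-likelihood fit over 307 miRNAs, the fitted log2 fold change was 0.28 ± 0.069 (SE) for miR-26a-5p and 1.05 ± 0.088 (SE) for miR-26b-5p. The fold change was higher for 94 of the 307 miRNAs than for miR-26a-5p and for 37 of them than for miR-26b-5p, with a median of 0.043. Both members were among the called miRNAs, at an adjusted p under 0.05. Of all tested miRNAs 26.7% were called, and 16.6% were called as raised. The selection of the pair used this contrast, and nothing is read from its calls. In the joint fit of 9 libraries, 63 of 196 tested miRNAs were called. There miR-26a-5p was no longer called, with a log2 fold change of 0.24 ± 0.098 (SE), and miR-26b-5p was.

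In the fit of RNase H-depleted against control libraries, which tested 138 miRNAs, the log2 fold change was 0.034 ± 0.21 (SE) for miR-26a-5p and -0.19 ± 0.58 (SE) for miR-26b-5p, around a median of -0.19. Neither of the 2 members was called, where 11.6% of the tested miRNAs were. Without the RNase H-depleted library of pool C the log2 fold change of miR-26b-5p was -1.11, and without that of pool A it was 0.34. Both comparisons share the 3 control libraries.

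**Figure D4:**
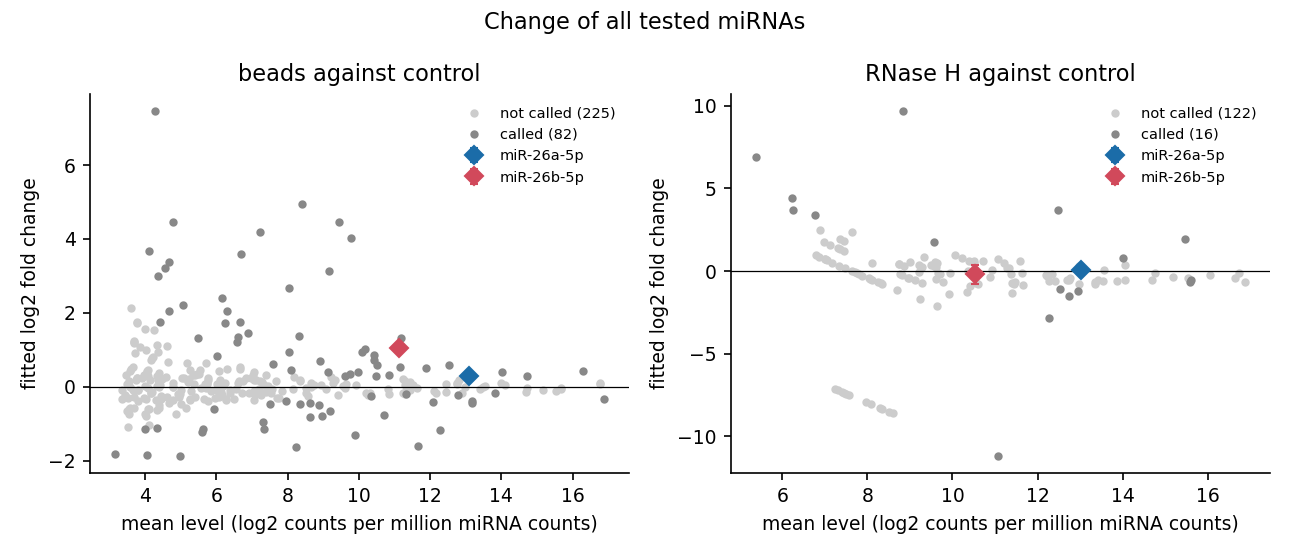
Fitted log2 fold change of all tested miRNAs against their mean level in log2 CPM of miRNA counts, for beads-depleted (307 miRNAs) and RNase H-depleted (138 miRNAs) against control libraries, with called miRNAs in the darker grey and standard errors for miR-26a-5p and miR-26b-5p. miR-26b-5p lies at 1.05 and miR-26a-5p at 0.28 in the beads comparison. In the RNase H comparison miR-26a-5p lies at 0.034 (SE 0.21) and miR-26b-5p at -0.19 (SE 0.58). There miR-26b-5p rests on 1 to 4 counts per RNase H-depleted library, too few to place it above or below control.

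For both members, every beads-depleted library was above every control library. How many other miRNAs separate in this way was not counted, so whether this separation is unusual is not known. By a different measure, edgeR called 26.7% of all tested miRNAs in either direction and 16.6% as raised in this contrast. By arithmetic means RNase H-depleted libraries came between control and beads-depleted libraries, and they differed from both by less than their own spread. Their place is not settled. miR-26b-5p was below control in pools A and B but above it in pool C. The mean of its log2 ratios within pools and its edgeR log2 fold change were negative. miR-26a-5p was below control with TMM scaling of the levels (log2 ratio -0.09).

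Around miR-26b-5p, miRNAs of nearly the same control level moved apart. MIMAT0000387, next above it in the order of control levels, had 0.145% ± 0.0101 in control and 0.120% ± 0.00662 in beads-depleted libraries (SD, n = 3) and fell, with a fitted log2 difference of -0.26 ± 0.093 (SE) and an edgeR adjusted p = 0.0229. MIMAT0000537, next below it, had 0.138% ± 0.0193 and 0.279% ± 0.0121 (SD, n = 3) and rose, with a fitted log2 difference of 1.02 ± 0.088 (SE) and an edgeR adjusted p = 7.41e-28. In control libraries these 3 miRNAs differed by less than their spread, and in beads-depleted libraries miR-26b-5p and MIMAT0000537 overlapped while MIMAT0000387 lay below both. MIMAT0000137, next above miR-26a-5p, had 0.804% ± 0.0979 in control and 0.713% ± 0.0944 in beads-depleted libraries (SD, n = 3). MIMAT0000247, next below miR-26a-5p, had 0.760% ± 0.0647 and 0.652% ± 0.0655 (SD, n = 3). Both were lower by their means where miR-26a-5p was higher, but their ranges in control and beads-depleted libraries overlapped. The fitted log2 difference was -0.17 ± 0.070 (SE, edgeR adjusted p = 0.0558) for MIMAT0000137 and -0.22 ± 0.071 (SE, edgeR adjusted p = 0.00923) for MIMAT0000247.

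Likeness of pattern was taken as Pearson's r of the log2 level over the 9 libraries, among the other miRNAs with at least 5 counts in each library (26 for miR-26a-5p and 27 for miR-26b-5p, which itself has fewer). It is a description without a test, since the libraries form 3 groups and share depth and composition within a group. MIMAT0000531 was most like miR-26a-5p (r = 0.878), and MIMAT0001632 most like miR-26b-5p (r = 0.846), whose own values in RNase H-depleted libraries rest on 1 to 4 counts. miR-26a-5p and miR-26b-5p were related with r = 0.464 over 9 libraries and r = 0.961 over the 6 control and beads-depleted libraries, where miR-26b-5p was at place 3 of 207 miRNAs in likeness to miR-26a-5p. The 5 miRNAs most like miR-26b-5p over these 6 libraries did not include miR-26a-5p.

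Taken of all annotated counts rather than miRNA counts, the levels followed the share of miRNAs in a library. miR-26a-5p made up 0.0478% ± 0.00727 of control, 0.575% ± 0.0908 of beads-depleted and 0.0226% ± 0.0208 of RNase H-depleted counts (SD, n = 3). miR-26b-5p made up 0.00854% ± 0.00197, 0.175% ± 0.0375 and 0.00330% ± 0.00235 in these groups (SD, n = 3). This denominator moves all miRNAs of a library alike, and the composition of the pair is the same on both scales. The miRNA share of all annotated counts was 4.92% to 6.72% in control, 51.5% to 71.4% in beads-depleted and 1.27% to 4.18% in RNase H-depleted libraries.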

How the data were processed

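Libraries were prepared with a TruSeq small RNA kit. The authors removed adaptors and reads shorter than 15 bases (Cutadapt v1.8.1), filtered on quality with the FASTX-Toolkit (v0.0.14), mapped them to mouse GRCm38/mm10 with Bowtie (v1.1.2) without mismatches and annotated them by position with miRBase (v20), UCSC and Ensembl (v84). Perfect matching leaves out edited reads and untemplated ends. The deposited values are raw counts per miRBase identifier and per other small RNA sequence, not normalized by the authors. Identifiers come without names: miR-26a-5p and miR-26b-5p follow the rule for the pair, and miR-16-5p the study's text. Planned comparisons of 3′ strands, same-seed pairs and marker lists were therefore not run.

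Levels were computed as percentages of miRNA counts, with Wilson 95% intervals for shares and exact Poisson intervals for counts (SciPy 1.17.1, Python 3.11.15). edgeR 4.0.16 in R 4.3.3 (TMM, filterByExpr, quasi-likelihood test, Benjamini-Hochberg adjustment, threshold 0.05) was fitted to 3 depleted and 3 control libraries over all miRNAs, and was tested on simulated data; DESeq2 1.42.0 was an alternative. Standard errors were derived from each fold change and its F statistic. Replicates within a group differed by more than sampling noise (chi-square per degree of freedom of at least 1.37). Pools pair the libraries by label; deviations from the group mean correlated within pools with r between 0.0331 and 0.161 for beads and between -0.0934 and 0.0610 for RNase H. Members, lists and the rule for named miRNAs (the pair, its neighbours in control level, the miRNAs most like it and miR-16-5p) were chosen with earlier results of these data known; of the 5 most alike only the first is named, because the files give no names. Annotation came from GENCODE M21 and sequences from RefSeq (GRCm38.p6).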

Additional observations from a re-analysis of the deposited data

How the results depend on the processing

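Leaving out each library in turn kept both members above control after beads depletion, with log2 ratios of the mean levels of 0.22 to 0.31 for miR-26a-5p and 0.98 to 1.14 for miR-26b-5p, and the share of miR-26a-5p in the pair differed by -8.91 to -7.54 percentage points. For RNase H these ranges crossed 0, from -0.066 to 0.29 for miR-26a-5p, from -0.91 to 0.62 for miR-26b-5p and from -3.41 to 7.54 percentage points for the pair. Other scalings gave miR-26a-5p a log2 ratio of 0.34 (TMM factors) and 0.20 (DESeq2 size factors) after beads depletion. For miR-26b-5p these were 1.12 and 0.98. Without the most abundant miRNA in the denominator, the log2 ratios were 0.22 for miR-26a-5p and 1.00 for miR-26b-5p. With all annotated counts as the denominator, the log2 ratios were 3.59 and 4.36 for miR-26a-5p and miR-26b-5p with beads and -1.08 and -1.37 with RNase H. The mean within pools, that is the serum pool as a replicate block, gave 0.27 and 1.04 with beads and 0.11 and -0.25 with RNase H. Blocked edgeR fits called 91 miRNAs (82 without the block) with beads and 12 (16 without it) with RNase H, and changed no call of the pair.

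With all annotated counts as library size, edgeR called all 332 tested miRNAs with beads and 51 of 143 with RNase H. In that RNase H fit 47 miRNAs were called as lower, among them miR-26b-5p (log2 fold change -1.75). DESeq2 called 32 of 207 miRNAs with RNase H. Without 1 library, calls ranged from 66 to 76 with beads and from 4 to 14 with RNase H, where 33 or 34 miRNAs were tested without a control library (4 to 6 calls), miR-26b-5p was not among those tested, and leaving out the RNase H-depleted library of pool C gave 9 calls. Likeness over the 6 control and beads-depleted libraries was added after seeing the data. The cause of these differences in calls was not tested.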
